A study of Mus musculus with 19 samples.

Results

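The 35 genes described here encode enzymes that write or erase chemical marks on histones, together with the core partners of 1 such enzyme. They were listed by name as histone acetyltransferases, deacetylases, methyltransferases and demethylases, out of 54749 genes that had a target in the sequencing index. No measured value entered the rule, but the list was drawn up with earlier results of these data known. All 35 entered the comparison of genotypes among 18687 genes that passed the filter on low counts. They were divided by the usual effect of each enzyme into 19 genes whose products add activating marks or remove repressive ones and 16 genes whose products do the reverse.

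Histones are the proteins around which DNA is wrapped, and their tails carry acetyl and methyl groups that affect how accessible and how active a gene is. Acetylation, and methylation of lysines 4, 36 and 79 of histone H3, are typical of active genes, whereas methylation of lysines 9 and 27 of the same histone is typical of silent ones. In neural progenitor cells these enzymes are known for setting the balance between self-renewal and the onset of neuronal and glial genes. The Mettl14 protein works with Mettl3 to methylate adenosines of messenger RNA (N6-methyladenosine, m6A), a mark linked to RNA decay and splicing, and transcripts of histone-modifying enzymes are among those known to carry it in neural stem cells.

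The cells were neural progenitor cells (NPCs) taken from the cortex of mouse embryos and grown with FGF2 and EGF, each at 20 ng/ml. Wild-type (WT) cells and Mettl14 conditional knockout (cKO, here KO) cells were compared by Ladder-seq, in which mRNA is separated by size into 7 bands, each band is sequenced under its own index, and the bands of a sample are analysed together. There were 4 WT and 4 KO ladder libraries with paired reads of 75 bases, 3 WT libraries made by the standard protocol with single reads of 50 bases, and nanopore long reads of native RNA and of cDNA from both genotypes, with 2 samples behind each of 4 assemblies. The labels do not give the Cre driver of the knockout, the age or the sex of the embryos, or whether replicates came from separate embryos or cultures, so the p-values measure only the spread between these libraries.

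The ladder libraries held 103752000 to 126922000 estimated counts and the standard libraries 12084500 to 13987900. Mettl14 itself lay at 25.3 ± 3.69 CPM (counts scaled to library size; SD, n = 4) in WT and at 6.93 ± 0.823 (n = 4) in KO libraries, a log2 difference of -1.87 (SE 0.13, edgeR adjusted p = 5.4e-07). The genotypes also differed in genes of the sex chromosomes: Ddx3y and Eif2s3y were near 0 in WT (0.0112 and 0.0235 CPM) and reached 3.83 and 6.02 CPM in the KO libraries, while Xist fell from 151 to 48.7 CPM. Genotype and sex composition therefore cannot be told apart in the ladder libraries. In the long-read assemblies, which give 1 pooled level for each genotype and chemistry, these genes went the other way. Ddx3y was at 15.2 TPM (a level scaled to transcript length) in WT and 4.64 in KO native RNA and at 2.01 and 0.503 TPM in cDNA, and Xist was listed at 0 in WT and at 1.31 TPM in KO native RNA and at 1.94 and 5.18 TPM in cDNA. Mettl14 was at 19.8 and 13.7 TPM in native RNA and at 1.68 TPM in cDNA of both genotypes, but over transcripts with annotated intron chains alone it was listed at 0 in both KO assemblies, against 19.8 and 1.62 TPM in WT. Among markers of other cell types, 6 of 7 neuronal genes tested fell, and their list summed to 45.8 to 67.2 TPM in WT and 33.7 to 48.4 in KO ladder libraries. Of 7 genes of the oligodendrocyte lineage 4 fell and 2 rose (median log2 difference -0.94), although their sum was 397 to 608 TPM in WT and 608 to 896 in KO. Of 6 astrocyte genes 5 rose and 1 fell (median 1.16), although their sums overlapped at 141 to 205 and 143 to 206 TPM. Of 6 cycling-cell genes 1 fell, with sums of 273 to 349 and 261 to 350 TPM. The 6 meningeal fibroblast markers summed to 0.102 to 0.193 TPM in WT and 1.81 to 2.84 in KO, and all 4 that could be tested rose (median log2 difference 4.58). The 6 microglial markers summed to 0.2999 to 0.448 and 0.512 to 0.889 TPM, with both tested genes higher, and the 6 endothelial and mural markers to 0.638 to 0.925 and 0.956 to 1.26 TPM, with 3 of 4 tested genes higher and 1 lower. No gene of these lists was at 0 in all 8 libraries. The 8 progenitor markers, which define the labelled cell type, summed to 5429 to 6987 TPM in WT and 3914 to 4362 in KO. Taken gene by gene, 1 of them rose, 2 fell and 5 did not pass (median log2 difference 0.05). The part of these shifts in the results was not tested, and in bulk libraries fewer cells of a type and less RNA per cell cannot be told apart.

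Measured per transcript length, the most abundant of these enzymes in WT cells were Hdac2 at 47.2 ± 5.99 TPM, Kdm1a at 40.1 ± 3.82, Ehmt2 at 36.9 ± 6.23 and Hdac1 at 32.5 ± 3.80 TPM (SD, n = 4). The SDs of neighbours in this order overlap. The least abundant were Kmt2a at 0.632 ± 0.192, Kmt2d at 1.03 ± 0.317, Hdac4 at 1.22 ± 0.334 and Setd1b at 1.59 ± 0.495 TPM. The sum over the 16 repressing genes was 280 ± 29.8 TPM in WT and 320 ± 57.4 in KO, and that over the 19 activating genes was 117 ± 15.98 and 143 ± 19.1 TPM. Both sums overlapped between the genotypes.

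Of the 35 genes, 10 rose in KO, 4 fell, and 21 did not pass the test (edgeR's quasi-likelihood test, Benjamini-Hochberg adjusted p under 0.05 over all genes). Of all genes tested, 53.6% passed, 26.4% as rises and 27.2% as falls, against 40% of the 35 genes, so the share that rose, 28.6%, was close to the background, and the share that fell was 11.4%. The risers were Setd1b, Setdb1, Kdm2b, Crebbp, Kmt2d, Kat6a, Hdac2, Ehmt1, Kmt2b and Kdm4a, and the fallers were Kmt2a, Kdm2a, Eed and Ezh2. Among the activating genes 6 rose and 1 fell, and among the repressing genes 4 rose and 3 fell. The median log2 difference was 0.18 over the activating genes and 0.07 over the repressing genes, beside -0.03 over all genes tested. Libraries of the genotypes did not overlap for 11 of the 35 genes (31.4%), against 49.0% of all genes tested. Only Setd1b passed a test against a minimum change of 1.5-fold.

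**Figure D1:**
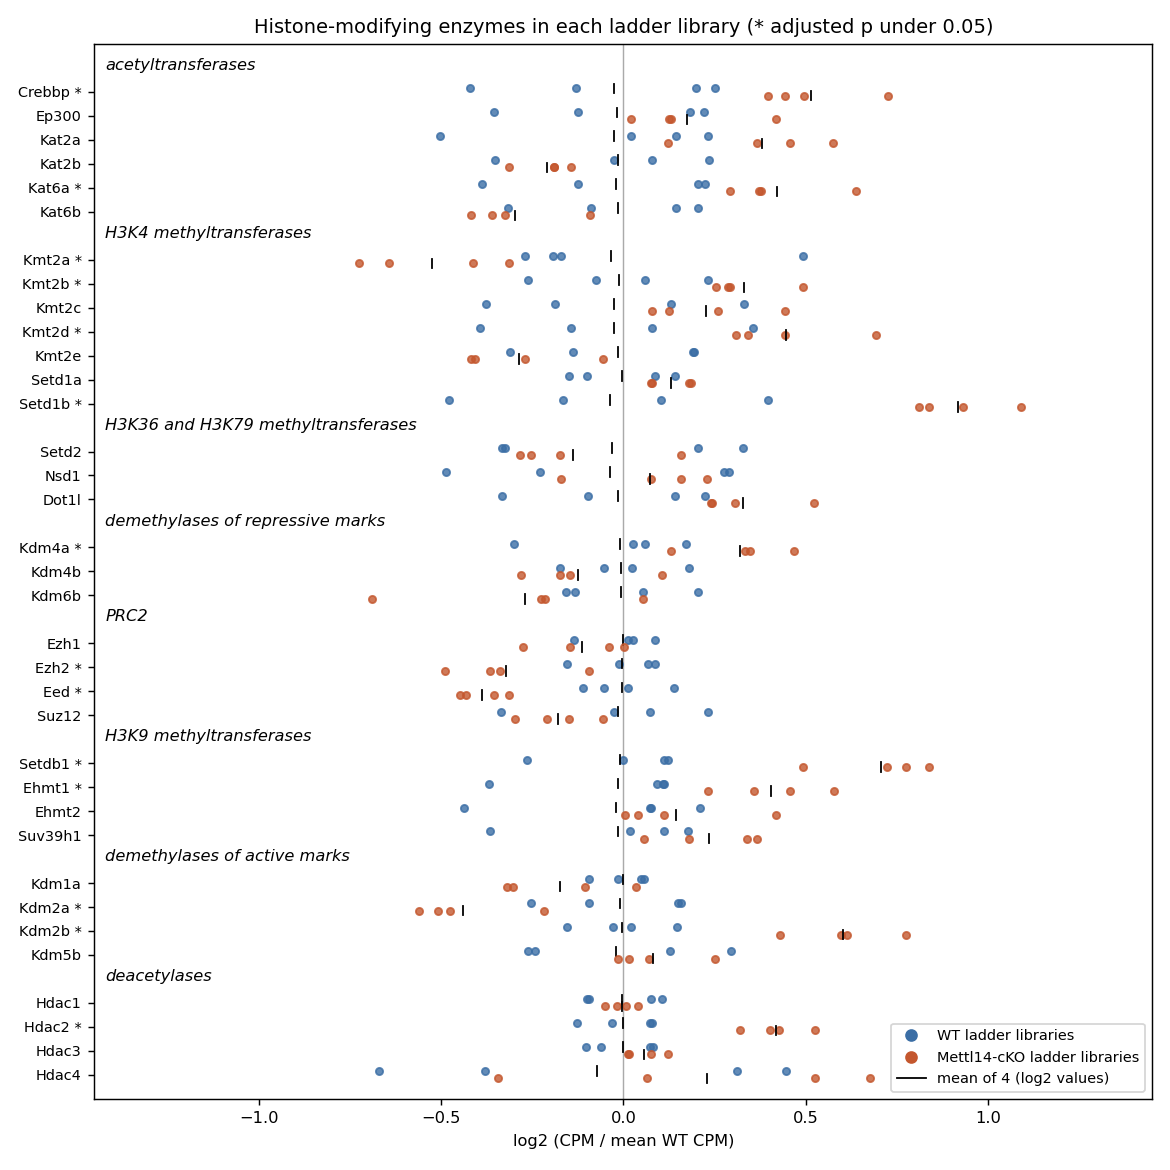
Level of each of the 35 genes in each ladder library, as the log2 of its CPM over the mean CPM of the 4 WT libraries, grouped by role. Points are libraries (blue WT, orange KO), black ticks are means of the log2 values, and a star marks an edgeR adjusted p under 0.05. All 4 KO libraries of Setd1b, Setdb1, Kdm2b and Hdac2 lie to the right of every WT library, and those of Eed to the left.

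Among the 6 acetyltransferases, which place acetyl groups on histone tails, 2 rose and none fell. Crebbp (chr16:4081328-4213997, GRCm38, minus strand) encodes CBP, a coactivator that acetylates histone H3 at lysines of enhancers. It measured 39.4, 40.9, 31.4 and 25.7 CPM in the WT libraries and 56.7, 48.4, 45.2 and 46.6 CPM in the KO libraries. Every KO library was above every WT library, and the log2 difference was 0.52 (SE 0.15, edgeR adjusted p = 0.012). Its paralogue Ep300 (chr15:81585351-81652077, plus strand), which encodes p300, measured 61.6, 63.2, 49.7 and 42.5 CPM in WT and 72.5, 59.4, 55.1 and 59.2 CPM in KO. These libraries overlapped and the log2 difference of 0.18 (SE 0.14) did not pass (edgeR adjusted p = 0.31, 95% interval -0.10 to 0.46).

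Kat6a, which encodes the MOZ acetyltransferase of the MYST family, rose from 141 ± 27.4 to 189 ± 20.6 CPM (SD, n = 4 each), with a log2 difference of 0.43 (SE 0.15, edgeR adjusted p = 0.030). Its paralogue Kat6b had a log2 difference of -0.29 (adjusted p = 0.079). Kat2a, the GCN5 acetyltransferase of the SAGA and ATAC complexes, lay just outside the threshold at a log2 difference of 0.39 (adjusted p = 0.058), and Kat2b (PCAF) at -0.21 (adjusted p = 0.18).

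Among the 7 genes of the trithorax type, whose products methylate lysine 4 of histone H3 at promoters and enhancers, 3 rose and 1 fell. Setd1b (chr5:123142193-123168629, plus strand), which encodes a catalytic subunit of the COMPASS complex, measured 15.9, 19.5, 13.2 and 10.6 CPM in WT and 31.5, 26.0, 26.5 and 28.2 CPM in KO. The groups were fully apart, and the difference was the largest of the 35 genes, 0.92 on the log2 scale or 1.89-fold (SE 0.16, edgeR adjusted p = 6.3e-04). Its paralogue Setd1a averaged 40.05 ± 3.92 CPM in the WT and 43.8 ± 1.83 in the KO libraries (log2 difference 0.13, adjusted p = 0.30).

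Kmt2d and Kmt2b rose by 0.45 (SE 0.16, edgeR adjusted p = 0.028) and 0.33 (SE 0.12, adjusted p = 0.034) on the log2 scale. Kmt2d methylates enhancers, and Kmt2b acts at promoters of developmental genes. Kmt2c, the paralogue of Kmt2d, had a log2 difference of 0.23 (adjusted p = 0.22), and Kmt2e, whose product has no established methyltransferase activity, one of -0.28 (adjusted p = 0.11).

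Kmt2a (chr9:44803355-44881296, minus strand), the MLL1 gene, was the least abundant of the 35 in the ladder libraries. It measured 4.96, 7.96, 5.03 and 4.70 CPM in WT and 4.25, 3.63, 3.42 and 4.55 CPM in KO. All KO libraries were below all WT libraries, WT replicate 2 stood above the other WT libraries, and the log2 difference was -0.51 (SE 0.18, edgeR adjusted p = 0.028). Without WT replicate 2 it was -0.31 (adjusted p = 0.064), and with an offset for each library's mean transcript length it was 0.02 (adjusted p = 0.91). In the same libraries the share of Kmt2a counts given to Kmt2a-203, a transcript of 4336 bases, was 26.3% in WT and 44.1% in KO. Kmt2a did not pass the test of transcript usage described below (diffSpliceDGE, adjusted p = 0.19).

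Of the writers on lysines 36 and 79 of histone H3, Setd2, Nsd1 and Dot1l, none passed the test. Dot1l, the lysine 79 methyltransferase, lay just outside it with non-overlapping libraries, 59.5 ± 10.1 CPM in WT and 75.0 ± 7.21 in KO (log2 difference 0.33, edgeR adjusted p = 0.053). Nsd1 had a log2 difference of 0.08 (adjusted p = 0.72) on summed counts. Its level per length, however, was 4.43 ± 1.05 TPM in WT and 6.97 ± 0.361 in KO. With the offset for transcript length the log2 difference was 0.59 (adjusted p = 0.0031). Nsd1-201 and Nsd1-207, which held most of its counts, were at 0.733 and 1.69 TPM in WT and 0.837 and 1.65 in KO. The difference per length thus lay mostly on its other transcripts, and Nsd1 did not pass over protein-coding transcripts alone.

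The demethylases that remove repressive marks were represented by Kdm4a, Kdm4b and Kdm6b. Kdm4a, which acts on lysines 9 and 36 of histone H3, was the riser closest to the threshold (log2 difference 0.32, SE 0.12, edgeR adjusted p = 0.043). Kdm6b (chr11:69398508-69413675, minus strand), the JMJD3 enzyme that removes methyl groups from lysine 27, measured 39.04, 43.4, 34.3 and 33.7 CPM in WT and 39.03, 32.4, 23.3 and 32.2 CPM in KO. The groups overlapped, with KO replicate 3 lowest, and the log2 difference of -0.25 (SE 0.15) did not pass (adjusted p = 0.19).

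Polycomb repressive complex 2 (PRC2) places methyl groups on lysine 27 of histone H3. Of its 4 core genes here, 2 fell, none rose, and the median log2 difference was -0.24. Ezh2 (chr6:47530139-47595341, minus strand), the main catalytic subunit of dividing cells, measured 51.1, 46.3, 54.0 and 54.7 CPM in WT and 40.7, 48.3, 39.997 and 36.7 CPM in KO. KO replicate 2 lay within the WT range and the other KO libraries below it, and the log2 difference was -0.31 (SE 0.11, edgeR adjusted p = 0.032). Eed (chr7:89954654-89980983, minus strand), the subunit that binds methylated lysine 27, measured 18.7, 19.5, 20.4 and 22.2 CPM in WT and 16.3, 15.8, 14.8 and 14.99 CPM in KO. The groups were fully apart, with a log2 difference of -0.39 (SE 0.09, adjusted p = 0.0041). Suz12, the scaffold subunit, had a log2 difference of -0.18 (adjusted p = 0.26), and Ezh1, the alternative catalytic subunit, one of -0.11 (adjusted p = 0.37).

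Of the 4 methyltransferases of lysine 9 of histone H3, 2 rose. Ehmt1 (GLP) rose by 0.41 on the log2 scale (SE 0.13, edgeR adjusted p = 0.019), while its dimerisation partner Ehmt2 (G9a) had a difference of 0.15 (adjusted p = 0.42). Suv39h1, an X-linked gene for an enzyme of constitutive heterochromatin, had a difference of 0.24 (adjusted p = 0.14).

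Setdb1 (chr3:95323525-95357202, minus strand), whose product silences retroelements, measured 59.6, 59.1, 45.5 and 54.7 CPM in WT and 97.9, 90.3, 93.6 and 76.9 CPM in KO. The groups were fully apart and the log2 difference over all its transcripts was 0.71 (SE 0.12, edgeR adjusted p = 4.1e-04). Over protein-coding transcripts alone the log2 difference was 0.03 (adjusted p = 0.87), an alternative chosen after the data were seen. The extra counts were assigned to Setdb1-204, an annotated transcript of 5652 bases that keeps an intron. Its share of Setdb1 counts was 16.4, 15.6, 16.5 and 4.43% in WT and 50.4, 45.5, 37.0 and 39.9% in KO. The share of the main coding transcript, Setdb1-202, was 59.4, 68.9, 67.3 and 77.9% in WT and 37.7, 38.2, 51.8 and 51.5% in KO. For both transcripts the 2 genotypes did not overlap.

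The intron kept in Setdb1-204 is intron 13 of 21 (chr3:95337266-95338345, GRCm38, 1080 bases, minus strand). It lies inside the coding sequence, and reading on from the exon meets an in-frame TGA from base 2 of the intron. The sequences at its ends are printed from the reference transcript because Setdb1-204, to which the extra counts were assigned, keeps this intron. Short reads across the intron itself were not examined. Capitals mark the first GT and the last AG of the intron.
Setdb1 exon to intron (chr3:95338306-95338375, minus strand): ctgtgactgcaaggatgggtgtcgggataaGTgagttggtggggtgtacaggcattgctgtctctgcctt
Setdb1 intron to exon (chr3:95337236-95337305, minus strand): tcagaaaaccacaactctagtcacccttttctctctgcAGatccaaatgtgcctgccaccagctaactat

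Per length, Setdb1-204 was at 1.02 ± 0.479 TPM in WT and 5.86 ± 1.29 TPM in KO (SD, n = 4 each), a ratio of 5.76 (exact two-sided permutation test, p = 0.029, the smallest that 4 against 4 libraries allow, and 0.057 after Benjamini-Hochberg adjustment over 4 such tests). The summed protein-coding transcripts were at 8.35 ± 1.81 and 9.41 ± 2.14 TPM (exact permutation p = 0.51). In the 3 standard WT libraries Setdb1-204 took 10.9, 10.7 and 9.10% of Setdb1 TPM. In the long-read cDNA assemblies, 1 transcript that kept the intron was listed in KO at 0.243 TPM beside 2.70 TPM of transcripts that had removed it. The cDNA assembly of WT listed none that kept it and 3.08 TPM that had removed it. The native RNA assemblies listed none that kept it in either genotype, beside 16.5 TPM without the intron in WT and 15.3 TPM in KO.

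Transcript usage, the division of a gene's counts among its transcripts, was tested for 34 of the 35 genes (diffSpliceDGE of edgeR, Simes-adjusted). It passed for 5 of them, against 19.6% of all genes tested. When transcripts under 5% of their gene were left out, 24 genes could be tested and Setdb1 (adjusted p = 0.0046) and Ehmt2 (adjusted p = 0.041) passed, against 11.6% of all genes. Of the 5, only Setdb1 moved a transcript by 10 percentage points or more, against 8.37% of all genes tested. The others were Nsd1, Hdac2, Ep300 and Dot1l, whose most moved transcripts moved by -7.32, 3.81, 0.50 and 0.41 points in KO. For Ehmt2 the share of Ehmt2-202, a coding transcript of 3746 bases, was 19.7, 24.1, 17.1 and 14.6% in WT and 11.3, 10.1, 9.42 and 9.85% in KO, with no overlap.

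**Figure D2:**
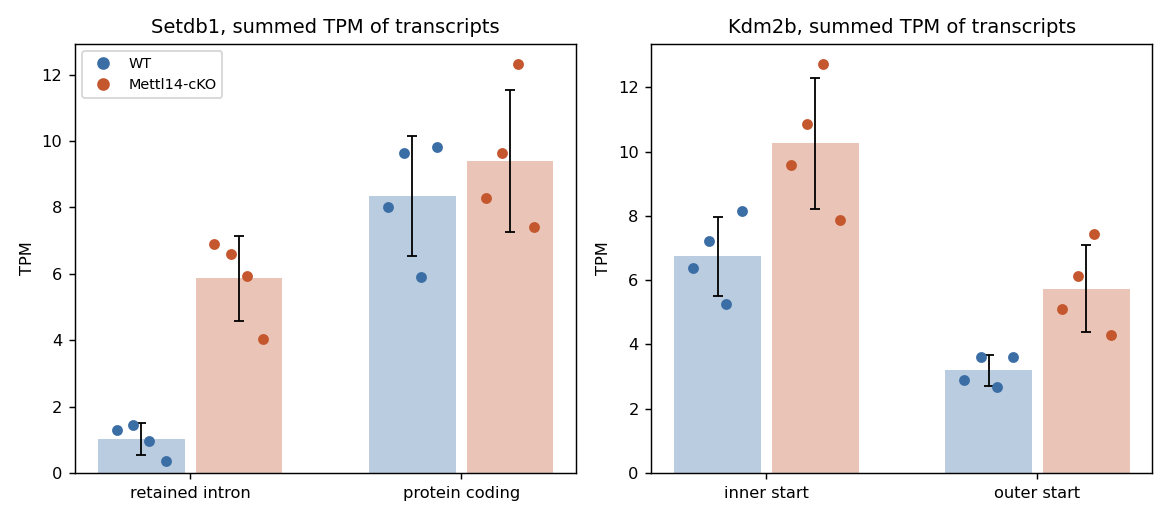
Summed TPM of transcript groups of Setdb1 (left) and Kdm2b (right) in the 4 WT (blue) and 4 KO (orange) ladder libraries; points are libraries, bars means and error bars SDs. The Setdb1 transcript with the retained intron is higher in every KO library than in any WT library, its coding transcripts overlap, and both start sites of Kdm2b have higher means in KO.

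Of the 4 demethylases that remove activating marks, Kdm2b rose and Kdm2a fell. Both encode enzymes with a zinc finger that binds CpG-rich DNA and a demethylase domain for lysine 36 of histone H3, and Kdm2b recruits a variant of Polycomb repressive complex 1 (PRC1). Kdm2b (chr5:122870665-122989823, minus strand) measured 47.3, 45.6, 41.9 and 51.5 CPM in WT and 70.4, 71.3, 79.7 and 62.7 CPM in KO. The groups were fully apart, with a log2 difference of 0.61 (SE 0.11, edgeR adjusted p = 6.1e-04). Kdm2a (chr19:4314419-4398285, minus strand) measured 72.7, 73.1, 61.3 and 55.0 CPM in WT and 56.4, 44.5, 47.1 and 46.1 CPM in KO. Only KO replicate 1 reached into the WT range, and the log2 difference was -0.43 (SE 0.12, adjusted p = 0.012). Kdm1a (LSD1) and Kdm5b had log2 differences of -0.17 (adjusted p = 0.23) and 0.08 (adjusted p = 0.63).

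Kdm2b is annotated with an outer start and an inner start. The transcript of the inner start, Kdm2b-201, has a coding sequence of 2328 bases, against 3762 to 3927 bases in the long coding transcripts of the outer start, and the shorter protein is known to lack the demethylase domain. Transcripts of the inner start summed to 6.36, 7.21, 5.26 and 8.14 TPM in WT and 9.58, 10.9, 12.7 and 7.87 TPM in KO. Those of the outer start summed to 2.91, 3.60, 2.66 and 3.61 TPM in WT and 5.10, 6.14, 7.43 and 4.28 TPM in KO. The outer-start sums did not overlap between the genotypes (exact two-sided permutation test, p = 0.029, adjusted 0.057), and the inner-start sums did in 1 library (p = 0.057, adjusted 0.076). The ratios of KO to WT means were 1.80 and 1.52. These groups too were chosen after their values were seen, which the p-values do not allow for. A promoter of each start is printed from RefSeq (GRCm38.p6) to show what differs between them, with each CpG in capitals. The outer one surrounds position 122989099, the annotated start of Kdm2b-202, whereas Kdm2b-205, the most abundant outer-start transcript, is annotated from 122989823.
Kdm2b inner start (chr5:122900301-122900600, minus strand): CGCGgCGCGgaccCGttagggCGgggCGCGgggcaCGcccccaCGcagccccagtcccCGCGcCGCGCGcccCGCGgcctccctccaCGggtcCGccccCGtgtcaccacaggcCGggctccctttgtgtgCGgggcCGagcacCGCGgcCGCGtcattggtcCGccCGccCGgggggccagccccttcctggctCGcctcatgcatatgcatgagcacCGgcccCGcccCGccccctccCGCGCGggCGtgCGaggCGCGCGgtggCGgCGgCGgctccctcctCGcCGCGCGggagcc
Kdm2b outer start (chr5:122989050-122989349, minus strand): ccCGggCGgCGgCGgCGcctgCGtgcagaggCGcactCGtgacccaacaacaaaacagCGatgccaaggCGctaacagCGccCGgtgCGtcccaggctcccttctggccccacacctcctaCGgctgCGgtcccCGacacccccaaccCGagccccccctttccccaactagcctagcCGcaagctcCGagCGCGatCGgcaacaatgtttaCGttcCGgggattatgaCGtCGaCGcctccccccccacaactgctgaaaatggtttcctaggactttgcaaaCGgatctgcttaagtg
The inner promoter holds 49 CpGs at 81.7% G and C, and the outer promoter 28 at 63.7%. Over the 25 genes with a listed promoter, 30 of 32 promoters (93.8%) had at least 50% G and C and an observed-to-expected CpG ratio of at least 0.6, against 33.5% of all 32851 promoters of the same length. The latter belong to 27025 genes, whether or not these were expressed here, and the share over the genes tested was not computed. The contrast is therefore not one with other expressed genes.

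Of the 4 deacetylases, which remove acetyl groups, Hdac2 rose from 112 ± 7.38 to 149 ± 8.84 CPM (SD, n = 4 each), with a log2 difference of 0.42 (SE 0.10, edgeR adjusted p = 0.0038) and no overlap. Its partner in the same corepressor complexes, Hdac1, was at 74.0 ± 5.61 and 73.8 ± 1.93 CPM, and its log2 difference of -0.0044 had a 95% interval from -0.19 to 0.18. Hdac3, the deacetylase of the NCoR complex, had a difference of 0.06 (adjusted p = 0.63), and Hdac4, a class IIa enzyme, one of 0.28 (adjusted p = 0.42) with libraries from 4.60 to 11.7 CPM.

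Of the 14 genes that passed, 7 did so in each of the 8 fits that left out 1 library, namely Setd1b, Setdb1, Kdm2b, Crebbp, Hdac2, Eed and Kdm2a. Kat6a lost the call without WT replicate 3, WT replicate 4 or KO replicate 1 (edgeR adjusted p up to 0.10), and Kmt2a without WT replicate 2, KO replicate 2 or KO replicate 3 (up to 0.081). Kmt2d lost it without WT replicates 3 or 4 or KO replicates 1 or 2 (up to 0.089), and Kmt2b without the same or WT replicate 1 (up to 0.12). Kdm4a lost it without WT replicates 1 or 3 or KO replicates 1, 2 or 3 (up to 0.10), Ezh2 without WT replicates 1 or 3 or KO replicates 1, 3 or 4 (up to 0.079), and Ehmt1 without KO replicate 3 (0.053). With the offset for transcript length, Kmt2b (adjusted p = 0.20) and Kdm4a (adjusted p = 0.054) also missed the threshold. In a fit of all 11 libraries over shared targets Kat6a, Kmt2b and Kmt2d missed it (adjusted p = 0.064, 0.071 and 0.074). The number of genes that fell was 2 without KO replicate 3.

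Partners and relatives of these enzymes, from lists drawn up beside the 35 genes, showed the following. Of 13 COMPASS subunits 3 rose and 2 fell, among them Pagr1a (log2 difference 0.96) and Men1 (0.78), which encodes menin, and on the other side Paxip1 (-0.40) and Hcfc2 (-0.35). Of 8 PRC2 partners, Rbbp7 rose (0.38) and Phf19 (-0.86) and Mtf2 (-0.69) fell, the latter pair being Polycomb-like proteins that bring PRC2 to CpG islands. Of 18 PRC1 subunits 8 rose and 4 fell, including Rybp (1.06) against Pcgf5 (-0.92) and Cbx7 (-0.89). Of 19 subunits of deacetylase complexes 7 rose and 4 fell, with Gatad2a (0.78) and Mbd3 (0.74) of the NuRD complex higher and Sin3b (-0.66) and Gatad2b (-0.38) lower.

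Among 11 other deacetylases and sirtuins, Hdac7 rose (log2 difference 0.72) and Hdac9 (-1.47) and Hdac10 (-0.37) fell. Hdac9, a class IIa deacetylase, went from 9.65 ± 1.31 to 3.48 ± 0.466 CPM (SD, n = 4 each). In a list of 13 other acetyltransferases and associated proteins, 2 genes rose and 3 fell. Ncoa1 (0.56) and Brd1 (0.31) were higher and Taf1 (-0.72) and Kat7 (-0.58) lower. Among 18 other histone methyltransferases 6 rose and none fell. Prdm16, a regulator of neural stem cells, averaged 0.967 ± 0.168 CPM in the WT and 14.9 ± 0.917 in the KO libraries, a log2 difference of 3.95 (SE 0.14, edgeR adjusted p = 4.6e-09), and Smyd5 rose by 1.07. In the long reads Prdm16 was at 0.346 TPM in WT and 0.0959 in KO cDNA, the opposite direction, and was listed at 0 in both native RNA assemblies.

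Among 14 other histone demethylases 3 rose and 4 fell, with Riox1 (log2 difference 2.22) and Kdm4d (1.17) higher and Jmjd1c (-0.85) and the X-linked Kdm6a (-0.60) lower. The Y-linked demethylase genes Kdm5d and Uty were near 0 in WT (0.250 and 0.0696 CPM) and reached 6.57 and 2.79 CPM in the KO ladder libraries. In the long reads both were lower in KO, Kdm5d at 8.40 and 3.31 TPM in native RNA and 0.564 and 0.263 in cDNA, and Uty at 7.12 and 3.14 TPM in native RNA and 0.559 and 0.316 in cDNA. Kdm5c, the X-linked partner of Kdm5d, was at 139 ± 16.5 CPM in WT and 133 ± 7.12 in KO ladder libraries (adjusted p = 0.61). Among 15 readers of acetylated or methylated lysine 3 rose and 3 fell, including Ing1 (0.84), Brd7 (0.40) and Mphosph8 (-1.61). The median log2 differences of these lists ran from -0.27 for the other demethylases to 0.23 for PRC1, apart from the list of 7 sex-linked genes at 4.71.

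The standard WT libraries gave the same genes by another protocol. Compared with them over targets present in all libraries, 1 of the 35 genes was higher in the WT ladder libraries and 19 were lower (54.3%), against 30.8% and 30.3% of the 16131 genes tested. When all annotated targets were used instead, the member counts were the same, while over all genes 7798 were higher and 5088 lower in place of 4967 and 4895. Protocol, read length, depth and index differ together between these libraries and cannot be told apart.

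Kmt2a measured 95.6, 81.5 and 77.0 CPM in the standard libraries and 6.99, 11.4, 7.43 and 6.59 CPM in the WT ladder libraries. That is a log2 difference of -3.38 (SE 0.22, edgeR adjusted p = 1.0e-05) between groups far apart. Nsd1, a lysine 36 methyltransferase, measured 136, 200 and 132 CPM in the standard libraries and 18.6, 22.5, 14.9 and 11.5 CPM in the ladder libraries. Its difference was -3.21 (SE 0.26, adjusted p = 2.7e-05), and only 34.1% of its ladder counts were on targets that the standard index also held, the lowest share of the 35 genes. Hdac4 measured 50.6, 38.5 and 43.9 CPM in the standard and 14.1, 13.1, 6.80 and 7.89 CPM in the ladder libraries (log2 difference -2.08, SE 0.27, adjusted p = 3.4e-04). All 3 were fully apart between the protocols.

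Ezh1 was the gene that went the other way, at 6.003, 8.90 and 8.12 CPM in the standard and 16.2, 17.2, 15.2 and 15.997 CPM in the ladder libraries (log2 difference 1.07, SE 0.17, edgeR adjusted p = 9.9e-04). The other PRC2 genes were all lower in the ladder libraries, with log2 differences of -0.997 for Ezh2, -0.69 for Eed and -1.64 for Suz12. The libraries of the protocols did not overlap for 22 of the 35 genes, against 62.0% of all genes tested.

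The difference moved with transcript length over all genes. Its median was 0.77 on the log2 scale for the 5912 genes whose leading transcript was up to 2 kb, -0.04 from 2 to 4 kb, -0.50 from 4 to 6 kb, -0.52 from 6 to 8 kb and -1.11 over 8 kb. The 35 genes had no leading transcript up to 2 kb in this grouping, and their medians in the other 4 groups were -0.01, -0.38, -0.49 and -1.08. Across the 35 genes the difference and the length had a Pearson's r of -0.29 and a Spearman's rho of -0.32, values that share the same libraries. The leading transcripts of the 35 genes had a median length of 4680 bases, from 2005 for Hdac2 to 19823 for Kmt2d. Among them 14 (40%) reached 6 kb, against a median of 2459 and 8.64% over all genes tested. Leading means the highest mean TPM, which for Kmt2a and Kmt2c was a transcript of 4336 and 5301 bases. Their largest shares of WT ladder counts were on Kmt2a-202 (16470 bases, 42.2%) and Kmt2c-201 (14967 bases, 43.2%). The length comparisons therefore place these genes among shorter ones.

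**Figure D3:**
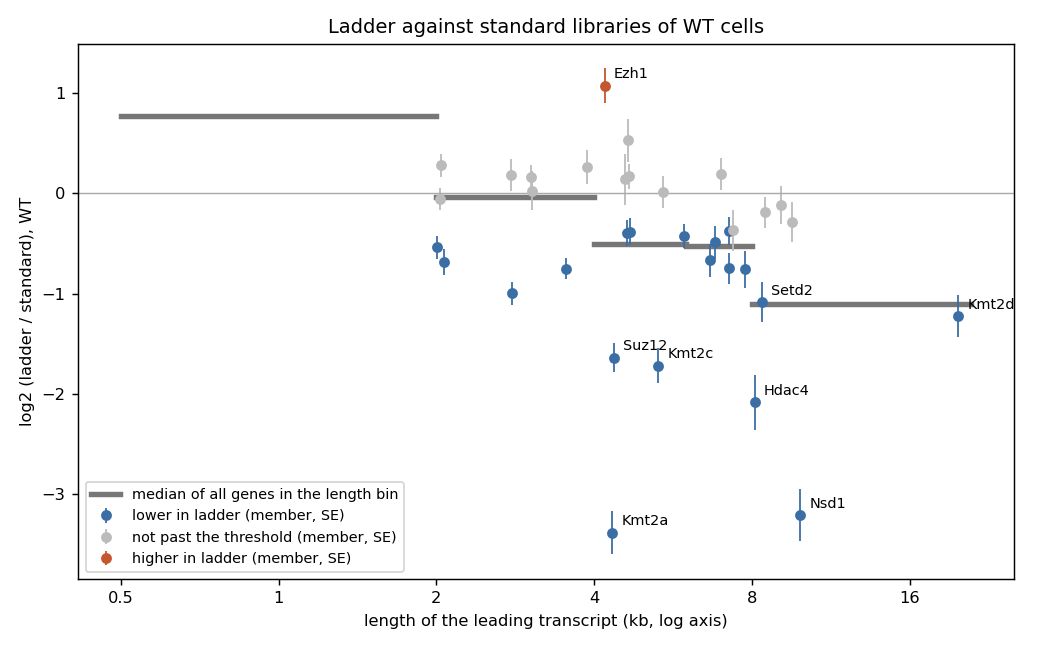
Log2 difference between WT ladder and WT standard libraries (bars: SE) for the 35 genes against the length of the leading transcript in kb on a log axis; grey lines are medians of all genes in each length group. Among the genes well below the grey line of their length are Kmt2a, Nsd1, Hdac4, Kmt2c, Suz12 and Ezh2. Among those well above it are Ezh1, Kat2b, Kat6a and Kmt2b. Kmt2a and Kmt2c are placed at the length of a shorter transcript that leads by TPM, although longer ones hold their largest share of WT counts.

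The long-read assemblies give 1 pooled level for each genotype and chemistry, so there is no replicate check and no test. In cDNA, all 35 genes had an assembled transcript in WT, from 0.314 TPM for Ezh1 to 16.7 for Hdac2, and all but Ezh1 in KO. In native RNA 29 were listed in WT and 25 in KO. Ep300, Setd1b, Ezh1 and Kdm2a were listed in WT alone, at 24.1, 13.6, 6.03 and 3.15 TPM, and Crebbp, Kat6a, Kat6b, Kmt2a, Kmt2d and Hdac4 were listed in neither. The longest assembled transcript had a median of 8832 bases in WT cDNA and 2973 bases in WT native RNA over the genes listed. Some in WT cDNA were far longer than the annotated leading transcript, such as Kat6b at 44914 against 6977 bases and Ezh2 at 8881 against 2787. The cDNA median is therefore not a measure of full-length mRNA.

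Ezh2 was at 9.32 TPM in WT and 5.57 in KO cDNA, and at 82.6 and 55.7 TPM in native RNA. Eed was at 2.30 and 2.45 TPM in cDNA and at 32.9 and 45.2 TPM in native RNA. Kdm2b was at 1.93 and 3.35 TPM in cDNA and at 27.6 and 46.1 TPM in native RNA. Thus Ezh2 was lower and Kdm2b higher in KO in the ladder libraries and both long-read chemistries, while Eed, lower in the ladder libraries, was not lower in either. Over transcripts with annotated intron chains alone these directions did not all hold: Ezh2 was at 1.37 TPM in WT and 2.78 in KO cDNA, and Kdm2b was at 27.6 TPM in WT native RNA and listed at 0 in KO.

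Setd1b was at 0.525 and 0.609 TPM in cDNA but at 13.6 TPM in WT and listed at 0 in KO native RNA. In cDNA Crebbp was at 3.17 and 3.35 TPM, and Hdac2 at 16.7 and 9.80 TPM. Of the 10 genes higher in KO ladder libraries, all 10 had a level in both cDNA assemblies and 5 of them were higher in KO there; of the 4 that were lower, 3 were lower. In native RNA, among genes with a level in both genotypes, 3 of 6 and 1 of 2 went the same way.

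**Figure D4:**
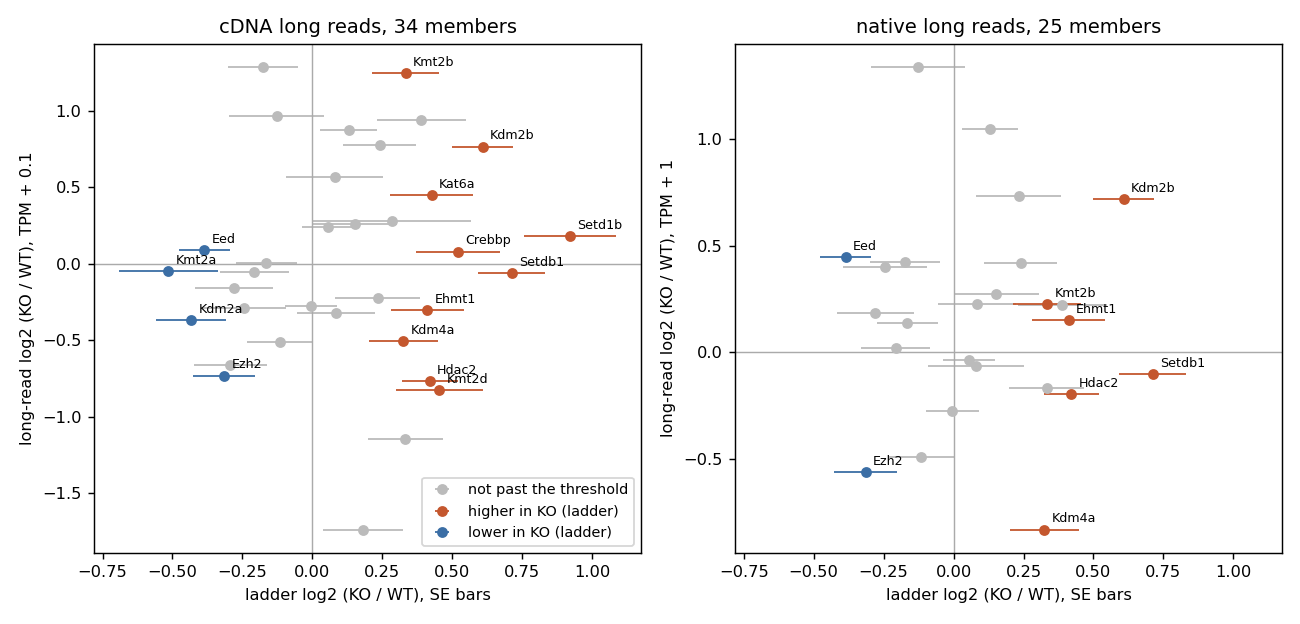
Log2 difference between KO and WT in the ladder libraries (horizontal, bars: SE) against that in the long-read assemblies (vertical, 1 pooled level a genotype), for cDNA with 0.1 TPM added (left, 34 genes) and native RNA with 1 TPM added (right, 25 genes). Kdm2b lies in the upper right and Ezh2 in the lower left of both panels, while Hdac2 and Setdb1 lie right of 0 in the ladder libraries and below 0 in the long reads.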

How the data were processed

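The authors deposited estimated counts and TPM for each target of a kallisto index, per the file headers and the submitters' processing notes, which also name STAR 2.5.4b, StringTie and minimap2 2.17; the sources used here do not give the options of each run. The long-read TPM values are those of StringTie 2.0 assemblies, per the file headers, and each assembly covers 2 samples. Estimated counts were rounded and summed per gene over GENCODE M21 (GRCm38), in which 138789 of 150173 ladder targets were found. Another 11338 targets assembled by the authors held 11.9 to 13.4% of ladder counts and had no gene name, so counts of the 35 genes on them, if any, are not included. Standard replicate 2 was quantified with fewer targets than the other standard libraries, and 105882 targets were shared by all 11.

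Genes were tested with edgeR 4.0.16 (R 4.3.3): filterByExpr, TMM scaling, library sizes over all targets, glmQLFit with robust dispersion and glmQLFTest, with SE taken as the log2 difference over the square root of F. CPM values are TMM-scaled. The 95% intervals take this SE on a normal distribution, so they are somewhat narrower than the F test would give. Usage was tested with diffSpliceDGE, which called too many unchanged genes on simulated data when rare transcripts were kept, so its calls are given beside those over transcripts of at least 5% of a gene. Transcript groups of Setdb1 and Kdm2b, chosen after their values were seen, were compared by an exact permutation test. The members, their roles and the other lists were chosen with earlier results of these data known. Named beside the 35 genes are, of each other list, up to 2 called rises and 2 called falls, except 1 gene that is not reported here; values in every library are given for the 4 largest rises and falls, for Crebbp, Ep300, Ezh2 and Kdm6b, and for the largest changes between protocols. Libraries of WT and KO with the same number did not deviate together (correlations of 0.010 to 0.038), so no pairing was assumed. No pair of libraries agreed within sampling noise. Between genotypes, precision is limited by 4 libraries a group more than by counts, since the lowest count of any of the 35 genes in a ladder library was 388. The 3 standard libraries were shallower, with Ezh1 at 6.003 to 8.90 CPM, so there low counts can also limit precision.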

Additional observations from a re-analysis of the deposited data

Results flagged for a closer look

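Among 78 groups of 4 ladder libraries examined, 3 held a library that stood apart from the other 3 by Dixon's ratio, which chance gives for about 1 in 20 groups. Kmt2a was at 7.96 CPM in WT replicate 2, against 4.70 to 5.03 in the other WT libraries. Kmt2b was at 70.5 CPM in KO replicate 1, against 59.7 to 61.4 in the other KO libraries. Ehmt1 was at 36.9 CPM in WT replicate 3, against 50.8 to 51.5 in the other WT libraries.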

How the results depend on the processing

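Against 10 members higher and 4 lower in KO, requiring more than a 1.5-fold change left 1 and 0 (2145 and 2066 of all genes), and protein-coding transcripts alone left 5 higher (Setd1b, Kdm2b, Crebbp, Hdac2 and Ehmt1) and 4 lower. With 1 library left out, 7 to 12 members were higher and 2 to 6 lower, and over all genes 4451 to 4855 were higher and 4508 to 5274 lower. With replicate number as a block 12 members were higher and 3 lower; Kdm4a and Ezh2 lost the call, and since the samples share only a number this says nothing on effect size. No WT library correlated best with the KO library of its own number. Members with changed usage numbered 16 by the F test (4733 genes), 2 over transcripts of at least 5% (884 genes), 1 with a share moved by 10 points (882 genes), and 3 to 7 with 1 library left out (1550 to 1780 genes), 3 without WT replicate 2. Members higher in ladder libraries numbered 2 with DESeq2, with no filter and with the replicate block, and 1 to 2 with 1 library left out.

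In KO against WT the direction reversed for Kmt2a with the transcript length offset (0.024) and for Hdac3 with the length trend offset (-0.0039). Hdac10 reversed over protein-coding transcripts (0.12), and Hdac1 under DESeq2 size factors (0.022), DESeq2 (0.022) and no filter (0.051). With 1 library left out, values of both signs were given by Setd2 (-0.25 to 0.00014), Nsd1 (-0.077 to 0.19), Kdm5b (-0.021 to 0.20) and Hdac1 (-0.039 to 0.021). In ladder against standard libraries, Kat2a reversed under DESeq2 size factors (-0.0056), DESeq2 (-0.0057) and the replicate block (-0.038), Kat6a with the replicate block (0.0091), Hdac3 with no filter (0.016), and Kdm5b under DESeq2 size factors (-0.016), DESeq2 (-0.016) and all annotated targets (-0.0067). With 1 library left out the range was -0.12 to 0.14 for Kat2a, -0.21 to 0.057 for Kat6a, -0.12 to 0.37 for Kdm4b and -0.12 to 0.073 for Kdm5b. The cause was not tested in any of these.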

Other observations

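WT replicates 1 and 2 differed from replicates 3 and 4 with transcript length. Over the 392 genes with a leading transcript over 8 kb and a mean over 5 CPM, the median deviation from the mean of all 8 ladder libraries was 0.15 and 0.22 on the log2 scale in WT replicates 1 and 2, and -0.17 and -0.35 in replicates 3 and 4. KO replicate 1 stood at 0.27. Of the 35 enzymes, 11 were highest among the WT libraries in each of replicates 1 and 2, 16 were lowest in replicate 4, and 18 were highest among the KO libraries in KO replicate 1. With an offset that follows this length trend in each library, an alternative chosen after the data were seen, 15 of the 35 rose and 6 fell. Calls also increased over all genes, to 5856 higher and 5635 lower in place of 4926 and 5090. Kmt2a, a faller in the main fit, did not pass with this offset. Ep300 (log2 difference 0.20, edgeR adjusted p = 0.0063), Dot1l (0.37, adjusted p = 2.9e-04) and Kmt2e (-0.25, adjusted p = 0.0020) were among those then past the threshold.

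The five-base sequence GGACT, the most common form of the m6A consensus, occurred 1.10 times per kb in the median leading transcript of the 35 enzymes and 1.03 times over all genes tested. Their longest internal exon had a median of 638 bases, against 182 over all genes tested. No m6A was measured in the data used here.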
